A study of Homo sapiens with 24 samples.

Results

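RNA of fraction 8 of a sucrose density gradient was compared between 293T cells carrying the D146N form of DIS3 and 293T cells carrying the wild-type form. The comparison took the 3 D146N libraries and the 3 WT libraries that bear the fraction label 8, 6 of the 24 libraries of the series. The 293T line derives from human embryonic kidney, and the libraries of both groups also held RNA of hepatocyte genes, whose levels are given with the marker lists below. Per the labels, both groups had DIS3 knocked down with the short hairpin RNA DIS3-sh2. The D146N group was rescued with DIS3 D146N and the WT group with DIS3 WT, so the controls carry the knockdown as well. The molecule is given as cytoplasmic RNA, ribosomal RNA was depleted with KAPA RiboErase, and libraries were made with KAPA RNA HyperPrep and sequenced on an Illumina NovaSeq. The labels give no time, dose, promoter or clone for the rescue, and the series describes its replicates as biological sets of 3 without saying how the cultures were separated.

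A sucrose gradient sorts particles by how fast they sediment, so free RNA and small ribonucleoproteins part from ribosomes and polysomes. DIS3 supplies the nuclease activity of the RNA exosome core, a complex that degrades and trims RNA from its 3′ end. It holds an exonuclease centre and a second, endonuclease centre in its PIN domain, and the aspartate replaced in D146N belongs to the endonuclease centre. RNase P and RNase MRP are small ribonucleoproteins that cut precursor tRNA and precursor ribosomal RNA. The signal recognition particle, built on 7SL RNA, brings nascent secretory proteins to the endoplasmic reticulum.

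Whether fractions were counted from the top or the bottom of the gradient is not given in the labels. The gene profile of fraction 8 in D146N cells was much closer to WT fractions 3 and 4 than to WT fraction 8. Over 9053 genes, Spearman's rho between D146N and WT libraries of fraction 8 was 0.591 to 0.597 for WT replicates 1 and 2 and 0.557 to 0.559 for WT replicate 3. Between D146N fraction 8 and WT fractions 3 and 4 it was 0.952 to 0.961. The WT fraction 8 replicates 1 and 2 in turn correlated at 0.939 to 0.946 with D146N fractions 3 and 4. These are correlations across genes, which are not independent replicates, and they are given without a test. An effect of the D146N mutation on sedimentation and an opposite numbering of the fractions in the 2 genotypes cannot be told apart for any gene below.

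The annotated starts of 7 ribosomal protein mRNAs and of EEF1A1, DIAPH1, SPECC1 and AHNAK are shown first, because many mRNAs of the translation machinery begin with a C and a run of pyrimidines, the 5′ terminal oligopyrimidine (TOP) start. Each line holds 10 bases before and 20 bases from the start annotated by RefSeq on GRCh38.p14, with the first 5 transcribed bases in capitals. The AHNAK start is that of a transcript that begins 980 bases inside the annotated gene, and the other 10 starts lie at the 5′ end of the gene.
RPLP1 (chr15:69452808-69452837, plus strand): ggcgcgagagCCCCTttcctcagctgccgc
RPL12 (chr9:127451387-127451416, minus strand): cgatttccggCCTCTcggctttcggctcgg
RPL9 (chr4:39458903-39458932, minus strand): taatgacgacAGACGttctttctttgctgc
RPL15 (chr3:23916535-23916564, plus strand): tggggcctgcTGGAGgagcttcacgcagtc
RPL29 (chr3:51995876-51995905, minus strand): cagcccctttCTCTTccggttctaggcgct
RPL3 (chr22:39319604-39319633, minus strand): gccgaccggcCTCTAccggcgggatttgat
RPL4 (chr15:66504836-66504865, minus strand): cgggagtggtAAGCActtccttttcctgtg
DIAPH1 (chr5:141618981-141619010, minus strand): ggcggctggcTAAAGagcgactgggcggcg
AHNAK (chr11:62545807-62545836, minus strand): cccccgccccAGAGCctggcccggcgccag
SPECC1 (chr17:20009349-20009378, plus strand): tccctctcctGAGCAtcagtgagcgcccgg
EEF1A1 (chr6:73521013-73521042, minus strand): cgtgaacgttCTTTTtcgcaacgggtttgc
RPLP1, RPL12, RPL9, RPL15 and RPL29 were lower in D146N fraction 8, and RPL3, RPL4, EEF1A1, DIAPH1, SPECC1 and AHNAK were higher. At the annotated start, a TOP-like start was read in RPLP1, RPL12 and RPL29 among the lower and in EEF1A1 among the higher. RPL9 and RPL15 were lower without one at the annotated base. An mRNA that begins some bases away from the annotated start could still hold a TOP start, which was not tested. The values are given below.

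Levels are given as CPM, the counts of a row scaled to the library total. Fold changes are log2 values of D146N over WT from edgeR with TMM factors, which scale each library to its typical gene. The 2 scales are far apart here, since the TMM factors were 2.74 to 2.78 in the D146N libraries and 0.371 to 0.531 in the WT libraries. The median log2 fold change over all 18907 genes tested was 0.11 by TMM and 2.78 on library totals. A gene near 0.11 by TMM was therefore several times higher in D146N as a share of the library. Totals were 22.4 to 22.9 M counts in D146N libraries and 31.4 to 33.0 M in WT libraries, and the 10 most abundant rows held 49.4 to 50.2% and 65.6 to 71.3% of them. At least 1 CPM was reached by 14690 to 14699 rows in D146N libraries and by 9402 to 10921 rows in WT libraries.

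Of the 18907 genes tested, 12314 (65.1%) passed an adjusted p of 0.05 in edgeR's quasi-likelihood test with Benjamini-Hochberg adjustment. By TMM 6154 (32.5%) were higher and 6160 (32.6%) were lower in D146N, and on library totals 16444 (87.0%) passed, 15295 (80.9%) were higher and 1149 (6.08%) lower. WT replicate 3 stood apart from WT replicates 1 and 2, which correlated at 0.980 with each other and at 0.926 to 0.927 with it. Without WT replicate 3, 11748 of 19605 genes (59.9%) were called, 5930 (30.2%) higher and 5818 (29.7%) lower. The direction held in all 3 fits (TMM, without WT replicate 3, library totals) for 5460 higher genes (28.9%) and 1148 lower genes (6.07%). The higher set was 90.0% protein coding and the lower set 31.6%, against 70.6% of all genes tested. The 3 D146N libraries lay above the 3 WT libraries in CPM for 79.5% of the genes tested and below them for 6.44%. Protein-coding genes of the lower set had a median RefSeq span of 7.71 kb, against 33.0 kb in the higher set and 32.3 kb over all tested.

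**Figure D1:**
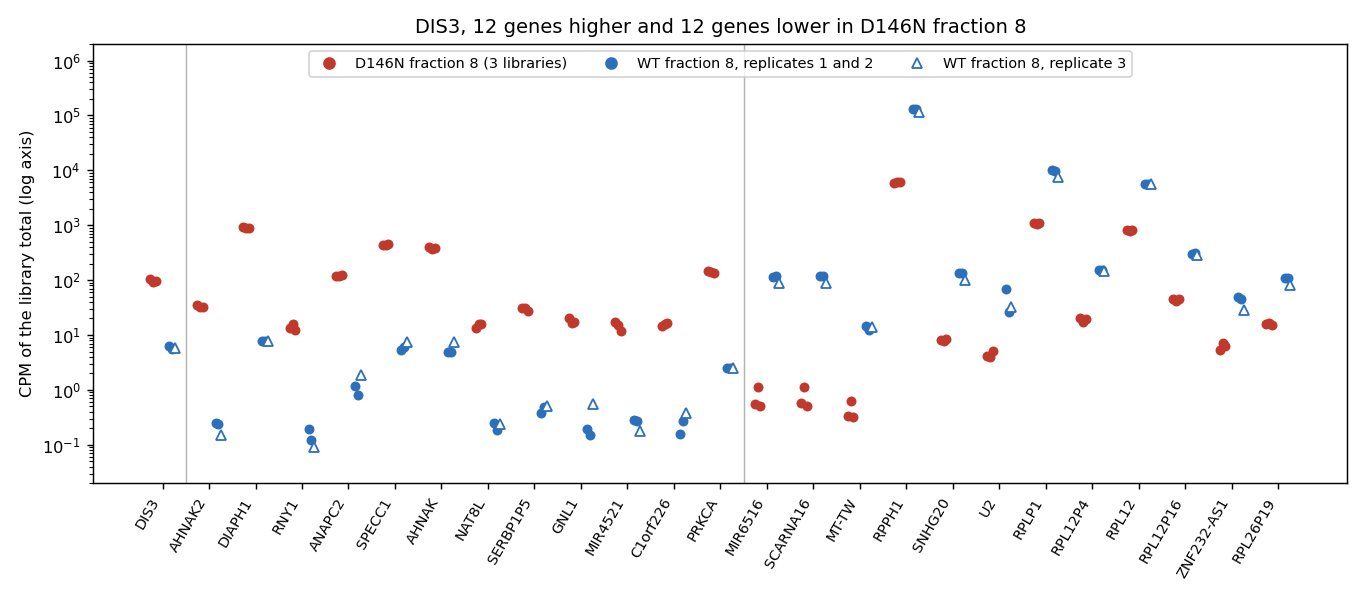
Level of DIS3 and of the 24 genes named by rule in each of the 6 fraction 8 libraries, in CPM on a log axis. D146N libraries are red and stand left of the WT libraries in blue, with WT replicate 3 as an open triangle. DIS3 and the 12 genes right of it lie higher in every D146N library, and the last 12 lie lower.

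DIS3 itself (ENSG00000083520, chromosome 13, 72752169 to 72781900) had 103, 94.0 and 95.5 CPM in D146N fraction 8, against 6.28, 5.48 and 5.88 CPM in WT fraction 8. The groups did not overlap, and WT replicate 3 lay between the other two. The mean was 97.6 ± 4.99 CPM in D146N and 5.88 ± 0.403 CPM in WT (SD, n = 3 each), a log2 fold change of 1.33 with a standard error of 0.12 and an edgeR adjusted p of 2.27e-12. Without WT replicate 3 it was 1.19, and on library totals 4.05. A gene count does not read the D146N codon, and a rescue mRNA with the DIS3 coding sequence may add to the same row, so this value checks neither the knockdown nor the genotype. Across the gradient DIS3 averaged 8.59, 9.13, 101 and 97.6 CPM in D146N fractions 3, 4, 7 and 8, and in WT 98.4, 95.1, 4.93 and 5.88 CPM.

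The exosome mRNAs were split in direction by TMM, as all genes tested were, with 32.5% higher and 32.6% lower. Of the 12 subunits, DIS3 included, 5 were higher, 5 lower and 2 not called by TMM, with a median of -0.16. That median turned to 0.21 without WT replicate 3 and to 2.50 on library totals, where the median of all genes was 2.78. EXOSC9, a ring subunit, had 57.9, 51.0 and 58.6 CPM in D146N, against 3.67, 3.29 and 4.77 CPM in WT (log2 1.14, adjusted p 5.96e-12). EXOSC6, another ring subunit, had a log2 fold change of 1.27. EXOSC1, a cap subunit, had 24.5, 26.5 and 30.0 CPM in D146N, against 15, 15.3 and 28.0 CPM in WT. It was lower by TMM at -2.19 and higher on library totals at 0.47. EXOSC8 had -1.44 by TMM and 1.26 on library totals. Of 18 exosome cofactors 8 were higher and 4 lower, with a median of 0.19, close to the 0.11 of all genes. SRRT (ARS2), which links the cap-binding complex to RNA decay, was higher at 1.09, and C1D, a nuclear exosome cofactor, was at -2.40 by TMM and 0.23 on library totals.

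The RNAs of RNase P and RNase MRP took smaller shares of the counts in D146N fraction 8. RPPH1 (chromosome 14, 20343071 to 20343411), the RNA subunit of RNase P, took 0.597, 0.610 and 0.610% of the counts in D146N fraction 8, against 13.1, 13.2 and 11.5% in WT fraction 8. The WT share was 20.8 times the D146N share. The log2 fold change was -7.12 with a standard error of 0.18 (edgeR adjusted p 7.1e-28), -7.30 without WT replicate 3 and -4.38 on library totals. RMRP (chromosome 9, 35657750 to 35658019), the RNA of RNase MRP, took 0.580, 0.578 and 0.568% in D146N, against 3.26, 3.22 and 3.85% in WT. RMRP had a log2 fold change of -5.30 by TMM and -2.58 on library totals. Both RNAs were thus lower in D146N on every scale, and the D146N and WT libraries did not overlap. Of the mRNAs for the 11 proteins of RNase P and MRP, 1 was higher and 7 lower by TMM, with a median of -0.98. Without WT replicate 3 that median was -0.49 with 6 lower, and on library totals 9 were higher and 1 lower with a median of 1.65. Over all genes 32.5% were higher and 32.6% lower by TMM, and 80.9% were higher on library totals, with a median of 2.78.

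7SL RNA, summed over its 3 rows, took the largest share of the counts in both groups among the noncoding RNAs given here. RPPH1 has a second row with the same reads, which is left out of its share. Its rank against 7SL in WT can depend on that row. RN7SL1, RN7SL2 and RN7SL3 together took 29.7, 30.4 and 30.2% of the counts in D146N, against 24.6, 24.8 and 23.1% in WT. That share was 1.25 times higher in D146N, while by TMM the 3 rows had log2 fold changes of -2.45, -2.42 and -2.26. The scale therefore decides the direction for 7SL, with 0.30, 0.32 and 0.48 on library totals. By TMM the mRNAs of its protein partners were mostly higher, 5 of 8 with 2 lower and a median of 0.79. SRP54, the GTPase of the particle, was among the higher at 1.31. All genes tested gave 32.5% higher and 32.6% lower by TMM, with a median of 0.11. 7SK RNA (RN7SK), which holds the elongation factor P-TEFb inactive, took 2.04, 2.06 and 2.03% in D146N, against 4.49, 4.38 and 3.45% in WT. Its log2 fold change was -3.76 by TMM and -1.01 on library totals. Of the mRNAs of 7 partners of 7SK, 6 were higher and 1 lower by TMM, with a median of 0.86. Without WT replicate 3 the counts were 6 higher, 0 lower and 1 not called. MEPCE, which caps 7SK, was at 1.38 and CCNT1, the cyclin of P-TEFb, at 1.18.

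Y RNAs, short RNAs bound by the Ro60 protein, were higher in D146N on both scales. RNY1 had 13.4, 15.8 and 12.6 CPM in D146N, against 0.191, 0.122 and 0.0909 CPM in WT, a log2 fold change of 3.99 (standard error 0.35, adjusted p 3.86e-12). RNY3 was higher at 2.70 and RNY4 at 4.48, each from a WT level under 0.1 CPM, where 1 library of RNY4 was at 0. All 3 Y RNAs were higher in every D146N library. The vault RNAs were split by TMM. VTRNA1-3 had 59.8, 56.0 and 45.6 CPM in D146N, against 7.08, 6.67 and 5.30 CPM in WT (log2 0.34, adjusted p 0.0331, not called without WT replicate 3). VTRNA1-1 was at -2.66 and VTRNA1-2 at -1.50 by TMM, and at 0.09 and 1.23 on library totals.

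**Figure D2:**
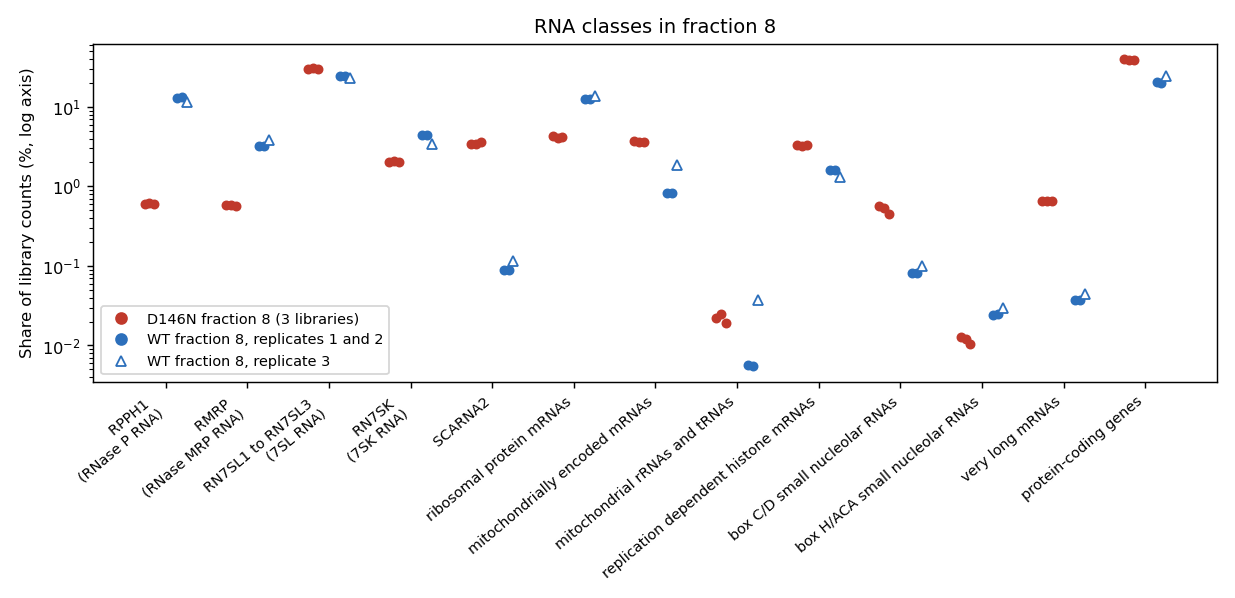
Share of all counts taken by 5 abundant noncoding RNAs and 8 RNA classes in each fraction 8 library, in percent on a log axis. D146N libraries are red and left, WT libraries blue and right, with WT replicate 3 as an open triangle. RPPH1 takes 0.605% on average in D146N and 12.6% in WT, and SCARNA2 and very long mRNAs lie higher in D146N.

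Ribosomal protein mRNAs were lower in D146N fraction 8 nearly as a block. By TMM 74 of 77 were lower, 2 higher and 1 not called, with a median of -4.20, against 0.11 over all genes. The share of all genes tested that was lower was 32.6% by TMM and 6.08% on library totals. On library totals 71 of 77 ribosomal protein mRNAs were lower with a median of -1.53. Without WT replicate 3 the TMM counts were 74 lower and 3 higher. Together they took 4.27, 4.08 and 4.15% of the counts in D146N, against 12.6, 12.5 and 13.7% in WT. RPLP1 (chromosome 15, 69452818 to 69456205), a protein of the ribosomal stalk, had 1071 ± 13.0 CPM in D146N and 9147 ± 1346 CPM in WT (SD, n = 3 each). The log2 fold change of RPLP1 was -5.85 with a standard error of 0.17 (adjusted p 4.85e-26). RPL12, at the base of the stalk, had 832, 786 and 833 CPM in D146N, against 5749.9, 5633 and 5681 CPM in WT (log2 -5.53). RPL9, RPL15 and RPL29, all of the large subunit, had log2 fold changes of -4.24, -4.25 and -4.68. The named rows RPL12P4, RPL12P16 and RPL26P19 are pseudogenes at -5.73, -5.53 and -5.42. They share sequence with RPL12 and RPL26, so their counts may be reads of the parent mRNAs.

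The 3 exceptions were RPL3, RPL4 and RPL5, chosen here after their values were seen. RPL4 had 824, 776 and 769 CPM in D146N, against 41.1, 40.9 and 79.8 CPM in WT (log2 1.21, adjusted p 2.17e-13). RPL3 had 797, 767 and 797 CPM in D146N, against 66.6, 64.1 and 127 CPM in WT (log2 0.54). RPL5 had 757, 720 and 735 CPM in D146N, against 85.9, 93.1 and 444 CPM in WT. It had a log2 fold change of -0.72 with an adjusted p of 0.0541, and 0.18 without WT replicate 3. RPL3 and RPL4 encode the largest proteins of the large subunit.

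A TOP-like start, read as C at the first annotated base followed by 4 bases each C or T on the transcribed strand, was present in 42 of the 62 ribosomal protein genes that have an entry among the RefSeq start sequences. It was present in 4.93% of 10900 other tested protein-coding genes with an entry and in 4.04% of all 27305 start sequences. The 42 ribosomal protein genes with it had a median log2 fold change of -4.37, and the 20 without it -4.05. The split rests on the annotated start alone. The 20 may thus include mRNAs whose TOP start lies some bases away, and the values do not compare TOP with non-TOP mRNAs. Outside the ribosomal proteins, the 537 genes with such a start had a median of 0.18 and 29.1% called lower, and the 10363 without it had 0.32 and 25.6%. Translation factors and other classic TOP mRNAs were mixed by TMM, with 13 of 31 higher and 14 lower. TPT1 was at -4.47, EEF1B2 at -3.03 and EEF1A1, which brings aminoacyl-tRNA to the ribosome, at 1.43. EEF1A1 was chosen after its values were seen. The list median was 0.07. Without WT replicate 3 the counts were 16 higher and 11 lower, and the median was 0.34. The library totals gave 26 higher and 4 lower, with a median of 2.71, against 80.9% higher and 2.78 over all genes. By TMM all genes tested gave 32.5% higher and 32.6% lower.

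Other mRNA groups of the gene expression and energy machinery were lower relative to the typical gene. Over all genes tested, 32.6% were lower by TMM, with a median of 0.11. On library totals 80.9% of all genes were higher, with a median of 2.78, so higher calls on that scale are the rule. Of 79 nuclear rows of oxidative phosphorylation that passed the filter on low counts, out of 149, 67 were lower and 7 higher by TMM with a median of -2.27, and 10 were lower and 47 higher on library totals with a median of 0.48. ATP5PF, a subunit of ATP synthase, had 49.8, 50.4 and 43.0 CPM in D146N, against 106, 108 and 139 CPM in WT (log2 -4.01, and -1.30 on library totals). NDUFV2, a subunit of complex I, was at -3.71. Of 78 mitochondrial ribosomal protein mRNAs 59 were lower and 13 higher by TMM with a median of -1.28, and 9 were lower and 62 higher on library totals with a median of 1.42. MRPL14 and MRPS7 were lower on both scales, at -3.82 and -4.01 by TMM and at -1.11 and -1.28 on library totals. Of 58 replication dependent histone mRNAs that passed the filter, out of 68, 52 were lower and 1 higher by TMM with a median of -1.69, and 2 were lower and 52 higher on library totals with a median of 1.07. Histone mRNAs took 3.34, 3.25 and 3.35% of the counts in D146N, against 1.62, 1.60 and 1.32% in WT.

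**Figure D3:**
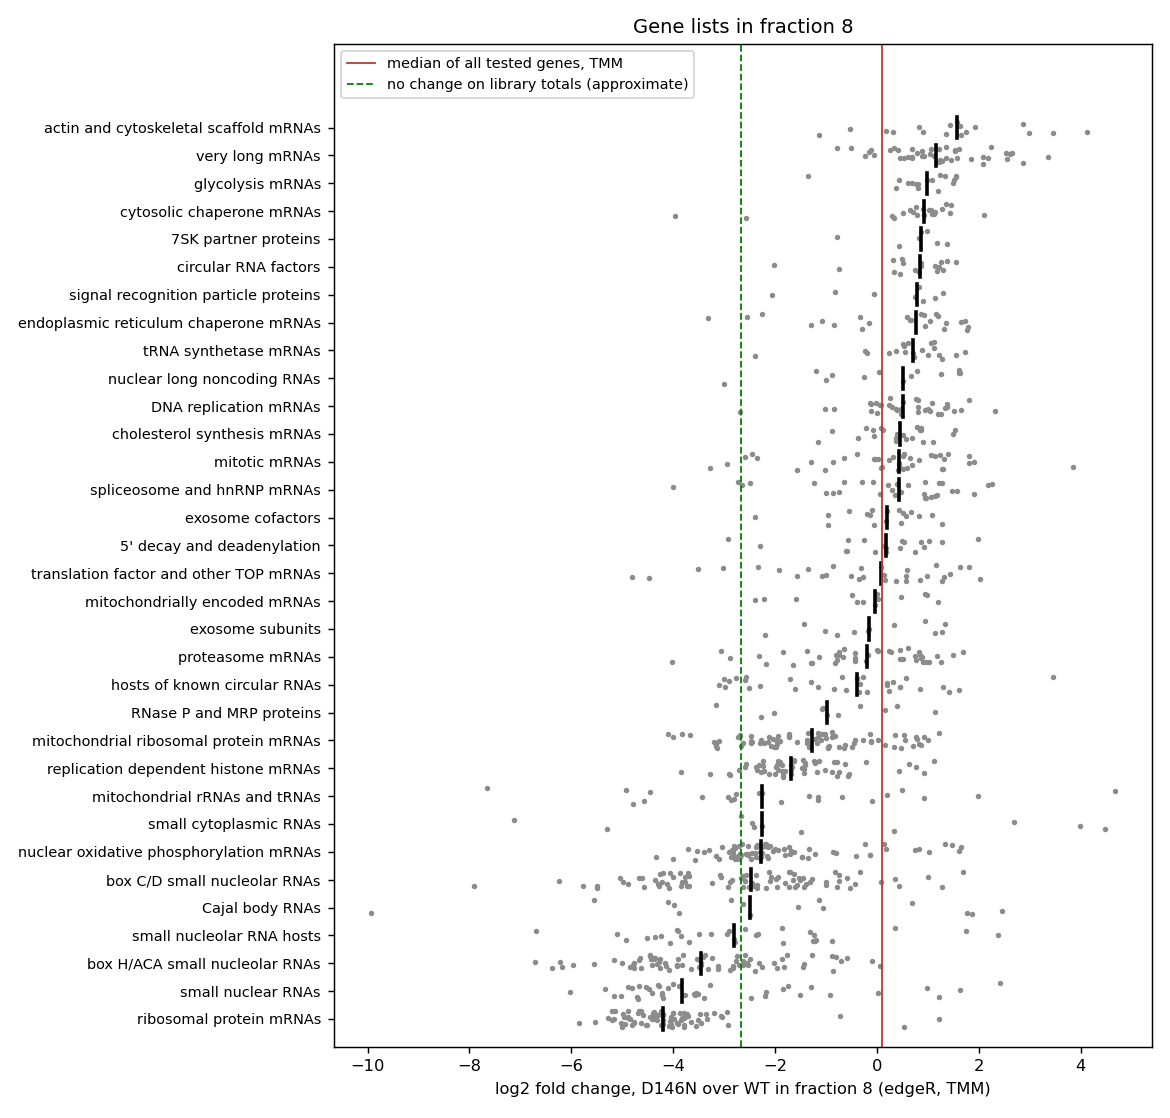
Log2 fold change of D146N over WT in fraction 8 (edgeR, TMM) for every tested member of 33 gene lists, ordered by list median. Each grey point is a gene and each black bar a list median, the red line is the median of all tested genes, and the dashed green line marks the place of no change on library totals. Ribosomal protein mRNAs lie lowest at -4.20 and actin and cytoskeletal scaffold mRNAs highest at 1.57.

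Small nuclear and nucleolar RNAs, box C/D RNAs only by TMM, were mostly lower. These RNAs act in splicing and ribosomal RNA modification in the nucleus. Among all genes tested, 32.6% were lower and 32.5% higher by TMM, and 6.08% lower and 80.9% higher on library totals. Of 40 small nuclear RNA rows that passed the filter, out of 49, 35 were lower and 2 higher by TMM with a median of -3.83, and 25 were lower and 11 higher on library totals with a median of -1.09. RNU4-2, a U4 RNA, had 3.71, 3.89 and 3.19 CPM in D146N, against 10.8, 10.9 and 10.2 CPM in WT (log2 -4.29), and RNVU1-15, a variant U1 RNA, was at -4.67. The U2 row had 4.14, 3.98 and 5.09 CPM in D146N, against 69.3, 26.1 and 32.1 CPM in WT, so WT replicate 1 was well above the other two. Of 76 box H/ACA nucleolar RNAs that passed, out of 214, 63 were lower and 0 higher in edgeR (also 0 at an unadjusted p under 0.05 and 0 in DESeq2), with a median of -3.46 by TMM and -0.80 on library totals. At an adjusted p of 0.05 on library totals 35 were lower and 8 higher. SNORA73B was at -4.41 and SNORA72 at -6.72. Of 86 box C/D RNAs that passed, out of 314, 70 were lower and 1 higher by TMM with a median of -2.48, and 24 were lower and 24 higher on library totals with a median of 0.14. SNORD58B and SNORD17 were lower on both scales, at -4.08 and -3.72 by TMM. The 1 higher was SNORD3A, a U3 RNA, with 5077, 4848 and 4033 CPM in D146N, against 515, 518 and 642 CPM in WT (log2 0.35). It carried most of the class, whose share was 0.563, 0.541 and 0.449% in D146N and 0.0814, 0.0818 and 0.0996% in WT.

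Cajal body RNAs, which guide modification of spliceosomal RNAs, split in opposite directions. SCARNA2 (chromosome 1, 109100193 to 109100612) took 3.39, 3.45 and 3.62% of all counts in D146N, against 0.0888, 0.0887 and 0.116% in WT, a D146N share 35.7 times the WT share. SCARNA2 had a log2 fold change of 2.45 (adjusted p 2.74e-21). SCARNA9 was higher at 1.86, SCARNA17 at 1.77 and SCARNA13 at 0.69, which made 4 higher and 11 lower of 15 that passed the filter by TMM. On library totals 8 were higher and 3 lower, with a median of 0.26, against -2.49 by TMM. All genes tested had 32.5% higher and 32.6% lower by TMM, and 80.9% higher and 6.08% lower on library totals. SCARNA7 was lower at -3.89, and at -1.17 on library totals. SCARNA16 (chromosome 17, 77089307 to 77089493) had 0.574, 1.14 and 0.510 CPM in D146N, against 117, 121 and 90.1 CPM in WT. SCARNA16 thus had a log2 fold change of -9.94 with a standard error of 0.29 (adjusted p 3.86e-17), -10.16 without WT replicate 3 and -7.18 on library totals.

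The row MIR6516 had nearly the same levels, 0.551, 1.11 and 0.510 CPM in D146N, against 116, 120 and 89.2 CPM in WT (log2 -9.98). Its hairpin overlaps SCARNA16 over 77 of 81 bases, so both rows can count the same reads. The second miRNA row among the named genes, MIR4521, was higher, with 17.1, 15.1 and 11.9 CPM in D146N, against 0.287, 0.274 and 0.182 CPM in WT (log2 3.19). The hairpins are printed from RefSeq on GRCh38.p14 with the mature arms in capitals, since these rows count any RNA over the hairpin and not the mature miRNA.
MIR6516 (chr17:77089417-77089497, plus strand): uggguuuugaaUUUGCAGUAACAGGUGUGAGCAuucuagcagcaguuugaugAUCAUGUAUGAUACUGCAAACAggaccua
MIR4521 (chr17:8186945-8187004, plus strand): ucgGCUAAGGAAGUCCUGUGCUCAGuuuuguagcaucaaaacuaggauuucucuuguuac
SNHG20 (chromosome 17, 77088643 to 77094986), the host transcript around SCARNA16, had 8.22, 7.79 and 8.42 CPM in D146N, against 133, 137 and 102 CPM in WT (log2 -6.69). Its row can hold SCARNA16 reads. Of 31 small nucleolar RNA hosts tested, out of 34, 27 were lower and 2 higher by TMM with a median of -2.81. On library totals 12 were lower and 10 higher with a median of -0.16, which was 0.37 without WT replicate 3. All genes tested had 32.6% lower and 32.5% higher by TMM, and 6.08% lower and 80.9% higher on library totals. TAF1D, GAS5, EPB41L4A-AS1 and ZFAS1 were lower at -3.91, -4.07, -4.23 and -4.51, and SNHG22 was higher at 1.76. The SNHG22 row spans SCARNA17 and can hold its reads, as the rows of other hosts can for the RNAs within them.

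Mitochondrially encoded mRNAs took a larger share in WT replicate 3 than in WT replicates 1 and 2. The 13 mitochondrial mRNAs took 3.76, 3.62 and 3.64% of the counts in D146N, against 0.823, 0.815 and 1.85% in WT. By TMM 3 were higher and 5 lower with a median of -0.04, and without WT replicate 3 they were 7 higher and 5 lower with a median of 0.24. That median, close to 0, also turned positive with any D146N library left out, at 0.073 to 0.092. On library totals 11 of 13 were higher with a median of 2.59, against 80.9% higher and 2.78 over all genes. All genes tested gave 32.5% higher and 32.6% lower by TMM. MT-ND5, a subunit of complex I, had 2735, 2686 and 2696 CPM in D146N, against 137, 140 and 284 CPM in WT (log2 1.20). MT-CO3, of cytochrome c oxidase, had 4920.2, 4423 and 4683 CPM in D146N, against 2800.4, 2754 and 6223 CPM in WT. It was at -2.39 by TMM and 0.25 on library totals. Of 23 mitochondrial rRNA and tRNA rows tested, out of 24, 16 were lower and 2 higher by TMM, with a median of -2.26. Without WT replicate 3, 15 were lower and 4 higher, and the median was -1.44. The library totals gave 6 lower and 11 higher, with a median of 0.42. MT-TW, a tryptophan tRNA, had 0.335, 0.634 and 0.328 CPM in D146N, against 14.8, 12.4 and 13.7 CPM in WT (log2 -7.65), and MT-TR, an arginine tRNA, was at -4.57.

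Among the 33 gene lists, actin and cytoskeletal scaffold mRNAs had the highest median by TMM. The list was chosen with earlier results of these data known and holds DIAPH1 and SPECC1, so its rank is no independent result. Of 17 actin and cytoskeletal scaffold mRNAs 14 were higher and 2 lower by TMM, with a median of 1.57, where 32.5% of all genes were higher. All 17 were higher on library totals, where 80.9% of all genes were, with a median of 4.27 against 2.78 over all genes. DIAPH1 (chromosome 5, 141515021 to 141619000), a formin that nucleates actin filaments, had 913, 875 and 908 CPM in D146N, against 7.77, 7.94 and 7.79 CPM in WT. The mean D146N level was 115 times the WT level, and the log2 fold change was 4.12 with a standard error of 0.11 (adjusted p 1.18e-26). It was 3.97 without WT replicate 3. SPECC1, a cytospin, had 442, 438 and 453 CPM in D146N, against 5.30, 6.05 and 7.32 CPM in WT (log2 3.45). AKAP12, an anchoring scaffold, had 2110.4, 2091 and 2103 CPM in D146N, against 42.8, 42.4 and 32.0 CPM in WT (log2 2.99), and DAAM1, another formin, was at 2.87. For DIAPH1, SPECC1 and AKAP12 no WT library came near a D146N library.

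Very long mRNAs, a list chosen in the same way, showed the same direction. Of 44 such mRNAs 38 were higher, 2 lower and 4 not called by TMM, with a median of 1.17, and all 44 were higher on library totals with a median of 3.88, against 80.9% and 2.78 over all genes. They took 0.661, 0.656 and 0.652% of the counts in D146N, against 0.0373, 0.0369 and 0.0447% in WT. The share of all genes tested that was higher by TMM was 32.5%. AHNAK (chromosome 11, 62433544 to 62546806), a giant membrane scaffold, had 397, 371 and 386 CPM in D146N, against 4.94, 4.97 and 7.50 CPM in WT (log2 3.36). AHNAK2, its relative, had 35.3, 32.1 and 32.4 CPM in D146N, against 0.255, 0.243 and 0.152 CPM in WT. It had the largest log2 fold change of the genes named by rule, 4.56 with a standard error of 0.24. MACF1, which links microtubules to actin, was at 2.86, CENPF, a kinetochore protein, at 2.66, and SPTAN1, a spectrin, at 2.55. The 2 lower by TMM were KMT2C and LRBA at -0.79 and -0.51, which were at 1.93 and 2.21 on library totals. The other genes named on the higher side were ANAPC2, which acts in the anaphase-promoting complex, at 3.85, NAT8L, which makes N-acetylaspartate, at 3.35, and GNL1, a GTP-binding protein, at 3.25. C1orf226 was at 3.18, PRKCA, a protein kinase C, at 3.11, and the pseudogene SERBP1P5 at 3.30. On the lower side stood also ZNF232-AS1, an antisense transcript, at -5.49, whose reads cannot be told apart from those of its partner gene unless counting used strand, which the sources do not state.

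Several cytosolic mRNA groups were mostly higher by TMM, where 32.5% of all genes tested were higher and their median was 0.11. Of 17 glycolysis mRNAs 15 were higher and 0 lower in edgeR, with a median of 0.99. At an unadjusted p under 0.05 in edgeR 1 was lower, GAPDH, and DESeq2 called 0 lower. ENO1 had 360, 338 and 351 CPM in D146N, against 16.2, 16.8 and 22.2 CPM in WT (log2 1.55), PGK1 was at 1.56 and PKM at 1.20. Of 21 cytosolic chaperone mRNAs tested 18 were higher and 2 lower. HSP90AB1 was at 2.09 and CCT7, of the chaperonin ring, at 1.37, while HSPB1, a small heat shock protein, was lower at -3.96 and at -1.21 on library totals. Of 24 endoplasmic reticulum chaperone and translocon mRNAs 15 were higher and 6 lower. HSPA5 (BiP) had 285, 286 and 296 CPM in D146N, against 11.5, 12.0 and 15.3 CPM in WT (log2 1.78), SEC61A1, the translocon channel, was also at 1.78, and SSR4, a small translocon subunit, was lower at -3.31. Of 20 tRNA synthetase mRNAs 17 were higher and 2 lower, among them EPRS1 at 1.73.

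Cell cycle and splicing mRNAs were higher on balance by TMM, with exceptions. Of all genes tested, 32.5% were higher and 32.6% lower by TMM, with a median of 0.11. Of 35 DNA replication mRNAs 23 were higher and 3 lower, with FEN1, a flap endonuclease, at 2.33 and the helicase subunits MCM7 and MCM3 at 1.81 and 1.38. Of 40 mitotic mRNAs 23 were higher and 11 lower, with MKI67 at 1.81. Of 32 spliceosome and hnRNP mRNAs 18 were higher and 10 lower. SF3B2 and SF3B1, large subunits of the U2 particle, were at 2.25 and 1.91, while SNRPD2, a small Sm protein, had 123, 120 and 111 CPM in D146N, against 308, 309 and 216 CPM in WT (log2 -4.00, and -1.23 on library totals). Of 22 cholesterol synthesis mRNAs 12 were higher and 2 lower with a median of 0.45. Of 44 proteasome mRNAs tested 16 were higher and 20 lower, with a median of -0.19 that was 0.09 without WT replicate 3. On library totals 39 were higher and 2 lower with a median of 2.44, against 80.9% higher and 2.78 over all genes. Of 19 mRNAs of 5′ decay and deadenylation 8 were higher and 6 lower, with a median of 0.19 that was 0.09 without WT replicate 3.

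Long noncoding RNAs known from the nucleus were detected in this RNA. MALAT1 had 1957, 2012 and 1967 CPM in D146N, against 92.8, 90.7 and 108 CPM in WT (log2 1.63). NEAT1 and TUG1 had log2 fold changes of 1.62 and 1.60. Of 13 such RNAs tested, out of 14, 6 were higher and 5 lower by TMM. All genes tested gave 32.5% higher and 32.6% lower on that scale, with a median of 0.11. Of 18 mRNAs of proteins tied to circular RNA, 16 were higher and 2 lower by TMM, with a median of 0.85. ADAR, which edits adenosines, had 148, 148 and 149.7 CPM in D146N, against 9.08, 7.90 and 9.27 CPM in WT (log2 1.37). Of 34 tested host genes of known circular RNAs 9 were higher and 21 lower by TMM with a median of -0.39. On library totals 27 were higher and 2 lower with a median of 2.31, against 80.9% higher and 2.78 over all genes. PVT1 was at -3.00. Gene rows do not separate circular from linear RNA, and circular RNA was not analysed here.

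**Figure D4:**
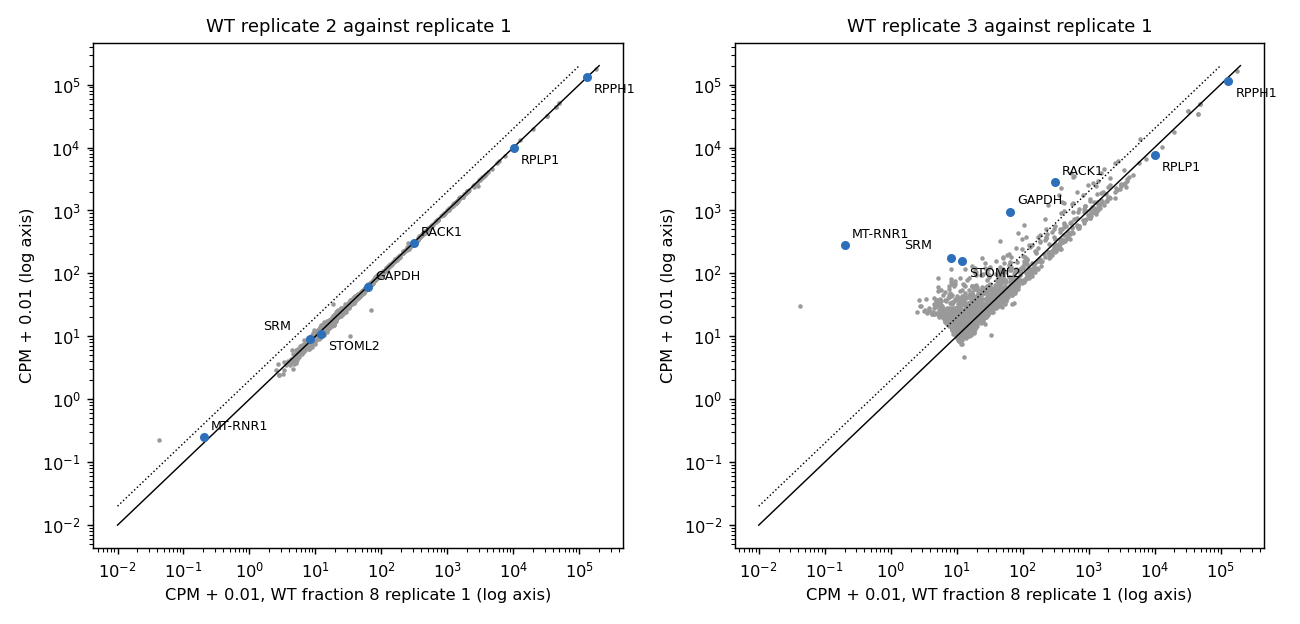
Level of the 1613 rows with a mean of at least 10 CPM in WT fraction 8, as CPM + 0.01 on log axes, for WT replicate 2 (left) and WT replicate 3 (right) against WT replicate 1. The solid line marks equal levels and the dotted line a 2-fold higher level, and MT-RNR1, GAPDH, RACK1, SRM, STOML2, RPLP1 and RPPH1 are named. Replicate 2 follows the line, while 312 rows of replicate 3 lie at least 2-fold above both other WT replicates.

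Within WT fraction 8, replicates 1 and 2 had a chi-square of 1.89 per degree of freedom over 13946 genes, the D146N pairs 3.74 to 4.00, and WT replicate 3 against either other WT replicate 113 to 115. Of 1613 rows with a mean of at least 10 CPM in WT fraction 8, 312 were at least 2-fold higher in replicate 3 than in both others. At least 2-fold lower were 2. That mean includes replicate 3, so rows high in it alone could pass, and the filter by itself adds rows to the 312. Of the 312, 261 (83.7%) had a D146N mean above both WT replicates 1 and 2 as well, against 63.8% of the other 1301 rows. The same filter bears on this contrast, since rows low in replicates 1 and 2 could pass through replicate 3. No conclusion is drawn from it. The genes below were chosen after their values were seen. GAPDH, a glycolytic enzyme, had 784, 753 and 757 CPM in D146N, against 63.6, 60.3 and 956 CPM in WT. Its log2 fold change was -1.36 with an adjusted p of 0.0535, and 0.76 without WT replicate 3. MT-RNR1, the small mitochondrial rRNA, had 68.2, 87.2 and 59.8 CPM in D146N, against 0.191, 0.243 and 278 CPM in WT. It had a log2 fold change of -2.76 with an adjusted p of 0.0864, and 5.49 without WT replicate 3. RACK1, a ribosome-bound scaffold, had 1292, 1245 and 1281 CPM in D146N, against 309, 306 and 2825 CPM in WT.

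Leaving out WT replicate 3 changed single genes more than counts. Of the genes tested in both fits, 11013 were called in the same direction with and without it, 1288 lost their call, 617 gained one and 7 changed direction. STOML2, a mitochondrial membrane protein, and EMD, the nuclear envelope protein emerin, are 2 of the 7. STOML2 had 116, 108 and 111 CPM in D146N, against 12.1, 10.8 and 160 CPM in WT. Its log2 fold change was -1.59 with WT replicate 3 and 0.42 without it. EMD was at -1.50 with it and 0.36 without it.

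Marker lists were used to check the labelled line, and they held genes of another cell type beside its own. The 293T markers reached a mean of 1 CPM in D146N fraction 8 for 9 of 9 and in WT fraction 8 for 3 of 9, and the hepatocyte markers for 8 of 10 and 5 of 10. The summed hepatocyte markers stood above the summed 293T markers in every library of fraction 8, and the source of this RNA was not tested. In bulk RNA, fewer cells of a type and less RNA per cell cannot be told apart. Of 9 markers of 293T cells, 7 were called higher in D146N by TMM, where 32.5% of all genes were. On library totals all 9 were, where 80.9% of all genes were. The 9 markers summed to 284 to 299 CPM in D146N and 22.2 to 27.1 CPM in WT. SIX2, a kidney progenitor factor, had 16.6, 12.2 and 15.5 CPM in D146N, against 0.510, 0.487 and 0.909 CPM in WT, and LIN28B had 29.9, 31.0 and 26.3 CPM in D146N, against 3.18, 3.33 and 3.73 CPM in WT. Of 10 hepatocyte markers 9 were detected, with a summed level of 533 to 565 CPM in D146N and 34.4 to 126 CPM in WT. APOB had 292, 284 and 266 CPM in D146N, against 18.7, 18.5 and 63.5 CPM in WT, ALB had 125, 131 and 128 CPM in D146N, against 8.74, 6.75 and 27.1 CPM in WT, and AFP 96.3, 88.4 and 89.9 CPM in D146N, against 7.79, 6.46 and 27.1 CPM in WT. CYP3A4 was at 0. APOB, ALB and AFP were higher in WT replicate 3 than in WT replicates 1 and 2, as GAPDH was, and their part in any result was not tested. Across the other fractions the list summed to 572 to 585 CPM in D146N fraction 7 and 630 to 675 CPM in WT fractions 3 and 4. In D146N fractions 3 and 4 it summed to 30.3 to 31.2 and 27.2 to 33.3 CPM. In WT fraction 7 it summed to 31.4 to 35.7 CPM. Erythroid markers summed to 1.03 to 1.58 CPM in D146N and 1.08 to 1.58 CPM in WT, immune markers to 0.939 to 1.68 CPM in D146N and 0.236 to 0.546 CPM in WT, and fibroblast markers to 14.0 to 18.0 CPM in D146N and 0.593 to 0.909 CPM in WT.

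Fraction 7 gave the same comparison with other libraries. Of the 12314 genes called in fraction 8, 10686 were also called in the same direction in fraction 7 and 1 in the opposite direction, ACOT2, an acyl-CoA thioesterase. ACOT2 had 9.57, 9.25 and 8.11 CPM in D146N fraction 8, against 1.07, 1.37 and 4.33 CPM in WT fraction 8, a log2 fold change of -0.64 that was 0.01 without WT replicate 3. The test of the difference between the fractions, an interaction term in the edgeR fit, called 0 of 18907 genes. Its smallest adjusted p was 0.256, and 1211 genes had an unadjusted p under 0.05. Without WT fraction 8 replicate 3 it called 0 of 19605, with a smallest adjusted p of 0.464 and 882 genes under an unadjusted p of 0.05. With median-of-ratios factors and on library totals it also called 0. RPPH1 had a log2 fold change of -7.48 in fraction 7 and -7.12 in fraction 8, DIAPH1 3.87 and 4.12, and RPLP1 -6.10 and -5.85.

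**Figure D5:**
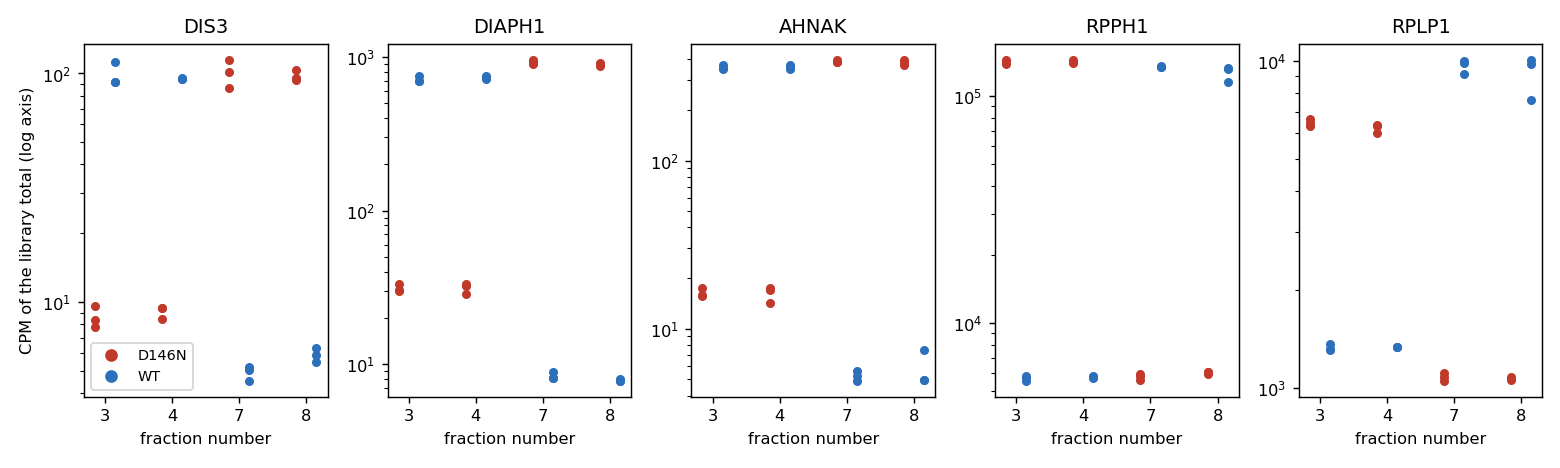
Level of DIS3, DIAPH1, AHNAK, RPPH1 and RPLP1 in all 24 libraries by fraction number, in CPM on log axes, with D146N in red left of WT in blue and 3 points per group. Each gene lies in D146N fractions 7 and 8 near its WT level of fractions 3 and 4, and RPPH1 and RPLP1 run opposite to the other 3.

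The levels by fraction number ran in opposite orders in the 2 genotypes. RPPH1 averaged 140892, 140987, 5801 and 6054 CPM in D146N fractions 3, 4, 7 and 8, and 5719, 5777, 134116 and 125758 CPM in WT. DIAPH1 averaged 31.0, 31.3, 936 and 899 CPM in D146N, and 717, 736, 8.32 and 7.83 CPM in WT. RPLP1 averaged 6476, 6235, 1083 and 1071 CPM in D146N, and 1327, 1335, 9646 and 9147 CPM in WT. Within fraction 8 the direction of all 3 was the same with and without WT replicate 3.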

How the data were processed

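The authors deposited expected counts per gene, 61853 versioned Ensembl rows in 24 libraries, not normalized, of which 73.3% of nonzero values were whole within 0.005. Per the submitters' processing notes, featureCounts 1.5.1, HISAT2 2.1.0, Bowtie2 2.3.5, SAMtools and hg38 were used, with roles and options not given in the sources used here. RPPH1, RMRP, RN7SK and SCARNA2 each have a second row with the same reads, which stays in the totals and is left out of their shares. Values were rounded, kept by filterByExpr and fitted with edgeR 4.0.16 in R 4.3.3 as 8 group means over all 24 libraries with TMM factors and a robust quasi-likelihood test, p-values adjusted over all genes tested. Since the files hold expected rather than whole counts, rounding was added to the planned test. Depth was 22.4 to 33.0 M counts in fraction 8, which sets counting precision only, and p-values measure the spread between these libraries.

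Members, gene lists and naming rule were chosen with earlier results of these data known. The rule named DIS3, the 12 genes each way with the largest fold change among those called with and without WT replicate 3 in 1 direction on both scales, with at least 10 CPM in a group and no overlap of libraries, and up to 4 members of each list with the smallest p. Some of these genes are not reported here. Shares were compared by an exact permutation test, two-sided, whose smallest p with 3 against 3 is 0.1; 12 of the 13 shares reached it, and mitochondrial rRNAs and tRNAs gave 0.6. The fit was tested on simulated data in which most genes did not differ between the groups. That test did not cover a shift as wide as the one here. Alternatives were library totals, median-of-ratios factors, DESeq2 1.42.0, no filter, fraction 8 alone, a replicate block, no small or mitochondrial rows, unrounded values and each library left out.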

Additional observations from a re-analysis of the deposited data

How the results depend on the processing

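DIS3 was called higher under every alternative, at 1.19 to 4.05. The direction of the 117 genes named in the text was the same with median-of-ratios factors, no filter, fraction 8 alone, the replicate block, unrounded values and, where they gave a value, with DESeq2 and without small and mitochondrial rows. On library totals 15295 genes were higher and 1149 lower, and 14678 and 887 at 2-fold or more. With WT replicate 3 also left out, an alternative added after seeing the data, these were 15807, 1021, 15253 and 756.

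On library totals these changed sign: RN7SL1 at 0.30, RPL5 at 1.83, MT-CO3 at 0.25, GAPDH at 1.09, EXOSC1 at 0.47, EXOSC8 at 1.26, C1D at 0.23, STOML2 at 0.88, EMD at 0.99, RACK1 at 0.15, KMT2C at 1.93, LRBA at 2.21, RN7SL2 at 0.32, RN7SL3 at 0.48, VTRNA1-1 at 0.093, VTRNA1-2 at 1.23 and ACOT2 at 1.98. The list medians that did so were exosome subunits at 2.50, hosts of known circular RNAs at 2.31, mitochondrial ribosomal protein mRNAs at 1.42, nuclear oxidative phosphorylation mRNAs at 0.48, mitochondrially encoded mRNAs at 2.59, mitochondrial rRNAs and tRNAs at 0.42, replication dependent histone mRNAs at 1.07, box C/D small nucleolar RNAs at 0.14, Cajal body RNAs at 0.26, small cytoplasmic RNAs at 0.48, RNase P and MRP proteins at 1.65 and proteasome mRNAs at 2.44. With WT replicate 3 also left out the values were RN7SL1 at 0.26, RPL5 at 3.04, MT-CO3 at 0.75, GAPDH at 3.63, EXOSC1 at 0.83, EXOSC8 at 1.43, C1D at 0.86, STOML2 at 3.28, EMD at 3.22, RACK1 at 2.05, MT-RNR1 at 8.33, KMT2C at 1.99, LRBA at 2.25, RN7SL2 at 0.31, RN7SL3 at 0.44, VTRNA1-2 at 1.10 and ACOT2 at 2.87, and for the lists exosome subunits at 3.06, hosts of known circular RNAs at 2.42, mitochondrial ribosomal protein mRNAs at 1.60, nuclear oxidative phosphorylation mRNAs at 0.38, mitochondrially encoded mRNAs at 3.11, mitochondrial rRNAs and tRNAs at 1.40, replication dependent histone mRNAs at 0.99, box C/D small nucleolar RNAs at 0.38, Cajal body RNAs at 0.20, small nucleolar RNA hosts at 0.37, small cytoplasmic RNAs at 0.44, RNase P and MRP proteins at 2.37 and proteasome mRNAs at 2.96.

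Leaving out WT replicate 3 alone changed the sign of RPL5 at 0.18, GAPDH at 0.76, STOML2 at 0.42, EMD at 0.36, MT-RNR1 at 5.49 and ACOT2 at 0.0068, and of the medians of exosome subunits at 0.21, mitochondrially encoded mRNAs at 0.24 and proteasome mRNAs at 0.092. Leaving out WT replicate 1 or 2 put AFP at -0.043 and -0.11 and the median of translation factor and other TOP mRNAs at -0.029 and -0.027. The median of mitochondrially encoded mRNAs became 0.073, 0.092 and 0.078 without D146N replicate 1, 2 or 3. With no filter on low counts it was 0.14, and exosome subunits were at 0.011. Without the 10 most abundant rows the log2 ratio of shares turned to -0.36 for mitochondrial rRNAs and tRNAs and -0.047 for protein-coding genes. The cause of these changes was not tested.

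With 1 library left out in turn the log2 fold changes and medians that changed sign ranged as follows. RPL5 ran from -1.0 to 0.18. GAPDH ran from -1.81 to 0.76. STOML2 ran from -2.02 to 0.42. EMD ran from -1.91 to 0.36. MT-RNR1 ran from -3.32 to 5.49. AFP ran from -0.11 to 0.82. ACOT2 ran from -0.88 to 0.0068. The median of exosome subunits ran from -0.25 to 0.21. The median of mitochondrially encoded mRNAs ran from -0.19 to 0.24. The median of translation factor and other TOP mRNAs ran from -0.029 to 0.34. The median of proteasome mRNAs ran from -0.36 to 0.092.

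With 1 library left out in turn, 5890 to 6579 genes were called higher and 5642 to 6030 lower. DESeq2 called 5596 higher and 7701 lower. Deviations from the group mean correlated at 0.030, 0.059 and 0.074 between same-numbered D146N and WT libraries. Differently numbered pairs were at -0.076 to 0.030, and each D146N library was highest with the WT library of its number. Whether the numbers mark paired cultures cannot be told from such small values, and the labels do not say. With the replicate block 12233 genes were called, 6134 higher and 6099 lower, and DIS3 was at 1.33.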
